A study of Homo sapiens with 3 samples.

Results

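The 10 genes described here build and remodel the actin cytoskeleton: the cytoplasmic actins ACTB and ACTG1, the actin monomer binders TMSB4X, TMSB10 and PFN1, the filament severing factor CFL1, the filament-coating tropomyosin TPM3, and the myosin light chains MYL6, MYL12A and MYL12B. They were taken by symbol, and all 10 were found, each as 1 of 26485 entries (18985 of them protein-coding). They were chosen by family with their levels per length in these same libraries known, so the levels are described without a test. RNA came from CAMA1, an established estrogen receptor-positive human breast cancer line labelled as FGFR1-amplified, grown for 48 h in medium deprived of estradiol. The series holds 1 group of 3 poly-A libraries, labelled as control and as biological replicates, and no treated group, so no contrast between conditions exists. Libraries held 26473939, 26592335 and 30745412 counts in replicates 1, 2 and 3, and errors below are SD over these libraries (n = 3). Culture and sequencing dates are not among the labels, so p-values measure only the spread between these libraries, which may be technical.

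Actin monomers assemble into filaments that give a cell its shape and carry its movement. Beta-thymosins hold monomers in reserve, profilin hands them to growing filament ends, and cofilin severs old filaments and returns monomers to the pool. Tropomyosins lie along the filament and govern which partners may bind, and non-muscle myosin II, made of heavy chains with an essential and a regulatory light chain each, pulls filaments past one another. In epithelial cells this machinery forms the belt at cell junctions and the cortex under the membrane. Monomeric actin also holds back the MRTF coactivators of serum response factor, a transcription factor that binds the CArG box in the promoters of several actin genes.

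The members include 3 pairs of close relatives, and how alike their transcripts are bears on how far reads can be told apart. The coding sequences below, without the stop codon, are from GENCODE release 29 transcripts on GRCh38, with positions counted from 1 at the first base of the start codon. Capitals mark bases that differ within a pair. For the actins the first 90 coding bases are shown, because the stretch just after the start codon carries the acidic residues by which the 2 proteins are known to differ.
ACTB: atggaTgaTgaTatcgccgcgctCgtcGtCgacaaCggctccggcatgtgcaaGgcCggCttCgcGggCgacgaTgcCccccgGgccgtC
ACTG1: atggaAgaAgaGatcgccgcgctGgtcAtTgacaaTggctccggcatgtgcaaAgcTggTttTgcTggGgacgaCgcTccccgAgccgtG
Over all 1125 coding bases ACTB and ACTG1 differed at 98, an identity of 91.3%, and their longest identical run in the whole transcripts was 59 bases. The beta-thymosins are short enough to be shown whole, at 132 bases each.
TMSB4X: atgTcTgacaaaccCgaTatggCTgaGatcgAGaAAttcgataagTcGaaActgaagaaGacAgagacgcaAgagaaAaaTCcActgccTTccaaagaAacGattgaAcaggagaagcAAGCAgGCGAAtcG
TMSB10: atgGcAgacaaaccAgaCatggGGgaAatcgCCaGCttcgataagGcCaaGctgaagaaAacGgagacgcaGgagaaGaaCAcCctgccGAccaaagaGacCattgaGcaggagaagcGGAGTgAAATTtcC
TMSB4X and TMSB10 differed at 37 positions (72.0% identity), with no identical run longer than 10 bases. The regulatory light chains are the closest pair, and the last 90 coding bases (positions 424 to 513 of MYL12A and 427 to 516 of MYL12B) are shown because they differ at 1 base.
MYL12A: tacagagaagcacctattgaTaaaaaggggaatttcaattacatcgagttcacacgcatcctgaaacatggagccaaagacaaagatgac
MYL12B: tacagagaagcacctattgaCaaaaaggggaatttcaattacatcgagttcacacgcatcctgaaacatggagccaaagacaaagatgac
Across the whole coding sequence MYL12A and MYL12B differed at 22 bases beside 3 gap bases (95.2% identity), and they shared an identical run of 77 bases.

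Some deposited counts were not whole numbers. This held for 13 of the 30 values of the 10 genes, while over all entries 82.9% to 83.3% of the values above 0 in a library were whole. ACTG1 and TPM3 had fractional values in all 3 libraries, ACTB and MYL12A in 2, and TMSB4X, MYL6 and MYL12B in 1, whereas TMSB10, PFN1 and CFL1 had whole values throughout. How the counting treated reads with several matches was not given in the sources used here, so the division of reads within the ACTB-ACTG1 and MYL12A-MYL12B pairs is uncertain. Pseudogenes named after a member that had at least 10 counts in each library took little beside their parents, with PFN1P2 the largest. PFN1P2 had 592, 489 and 677 counts, 9.08% of those of PFN1, and TPM3P9 had 2.74% of those of TPM3. ACTG1P20, ACTG1P4 and ACTG1P17 had 0.121%, 0.0703% and 0.0406% of those of ACTG1.

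ACTB, which codes for beta-actin, had the highest mean level of the 10 genes, though TMSB4X was above it in replicates 1 and 2. Its gamma counterpart ACTG1 held a near-constant ratio to ACTB in each library. Levels are in TPM, the deposited count divided by the deposited gene length and scaled so that every library has the same sum. ACTB (hg38 chromosome 7, 5527148 to 5530601, minus strand) reached 7996, 8931 and 8115 TPM in replicates 1, 2 and 3, a mean of 8347 ± 509 TPM and rank 2 of 18985 protein-coding entries. ACTG1 (chromosome 17, 81509971 to 81512866, minus strand) reached 3927, 4321 and 3892 TPM, rank 9. Replicate 2 was highest for both actins, and their ranges did not overlap. The level of ACTB over that of ACTG1 was 2.04-, 2.07- and 2.08-fold in the 3 libraries, a log2 ratio of 1.04 ± 0.02. This ratio varied less between libraries than those of the other pairs. With the length of all GENCODE exons in place of the deposited length the log2 ratio was 0.59.

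The beta-thymosins, which bind actin monomers and keep them from assembling, were near the actins in level with the deposited lengths. TMSB4X (chromosome X, 12975107 to 12977227, plus strand) stood at 8621, 8935 and 6874 TPM in replicates 1, 2 and 3 (8143 ± 1111 TPM, rank 3). The value of replicate 3 lay below both others, and no other member had so large a relative SD. TMSB10 (chromosome 2, 84905639 to 84906675, plus strand) stood at 3883, 3799.6 and 3795 TPM (3826 ± 49.3 TPM, rank 11), the smallest relative SD of the 10 genes. TMSB4X exceeded TMSB10 in each library, by 2.22-, 2.35- and 1.81-fold. That order rests on the deposited length of TMSB4X, 629 bases, for its GENCODE exons cover 1705 bases. With its principal transcript of 1702 bases TMSB4X came to 3029 TPM, below ACTB at 7925, ACTG1 at 3800.4 and TMSB10 at 3742 TPM. With the GENCODE exon lengths the log2 ratio of TMSB4X over TMSB10 went from 1.08 to −0.32, so which thymosin transcript was more abundant cannot be told from these data.

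PFN1, the profilin that delivers actin monomers to growing ends, lay well below the thymosins. PFN1 (chromosome 17, 4945650 to 4949086, minus strand) stood at 415, 442 and 482 TPM in replicates 1, 2 and 3 (446 ± 33.8 TPM, rank 268), highest in replicate 3. CFL1, the non-muscle cofilin (chromosome 11, 65854814 to 65858333, minus strand), stood at 3513, 3675 and 3507 TPM (3565 ± 95.7 TPM, rank 14). Its libraries lay close together, with replicate 2 highest. With the GENCODE exon length, which is 5863 bases against the deposited 1257, CFL1 came to 1046 TPM.

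TPM3, a tropomyosin gene with many alternative transcripts, was the lowest of the 10 genes per length, and more than any other its level depended on the length used. TPM3 (chromosome 1, 154155304 to 154192135, minus strand) stood at 191, 192 and 173 TPM in replicates 1, 2 and 3 (185 ± 10.9 TPM, rank 889). Replicate 3 lay below both others. The deposited length of TPM3 is 11580 bases, the union of its listed exons, whereas the longest GENCODE transcript tagged as principal has 1523. With that transcript length, an alternative chosen after seeing the data, TPM3 came to 1418 ± 84.1 TPM and stood above MYL12B. Before any division by length, TPM3 had 21939, 22179 and 23491 counts, more than TMSB10 with 18538, 18280.0 and 21480.0 counts.

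Among the myosin light chains, the essential chain MYL6 was the highest, by a margin that depended on the length used. MYL6 (chromosome 12, 56158261 to 56161582, plus strand) stood at 4971, 5125 and 5004 TPM in replicates 1, 2 and 3 (5033 ± 81.0 TPM, rank 5), with the libraries close together. With the GENCODE exon length of 4609 bases in place of 809, it came to 1209 TPM, against 797 TPM for MYL12B and 281 TPM for MYL12A. With principal transcripts the values were 4549, 906 and 546 TPM. MYL12B (chromosome 18, 3262113 to 3278284, plus strand) stood at 938, 946 and 981 TPM (955 ± 22.8 TPM, rank 108), and MYL12A (chromosome 18, 3247482 to 3256237, plus strand) at 487, 469 and 402 TPM (452 ± 44.8 TPM, rank 265). The 2 regulatory chain genes are neighbours on the same strand, with 5875 bases between them. MYL12A was below MYL12B in each library, at 0.519, 0.496 and 0.409 of its level, a log2 ratio of −1.08 ± 0.18. Replicate 3 held the lowest MYL12A and the highest MYL12B value. An entry on the other strand, LOC104968399, shares 93 exon bases with MYL12A and 125 with MYL12B. It had 18, 44 and 38 counts, against 6896 or more for either gene.

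**Figure D1:**
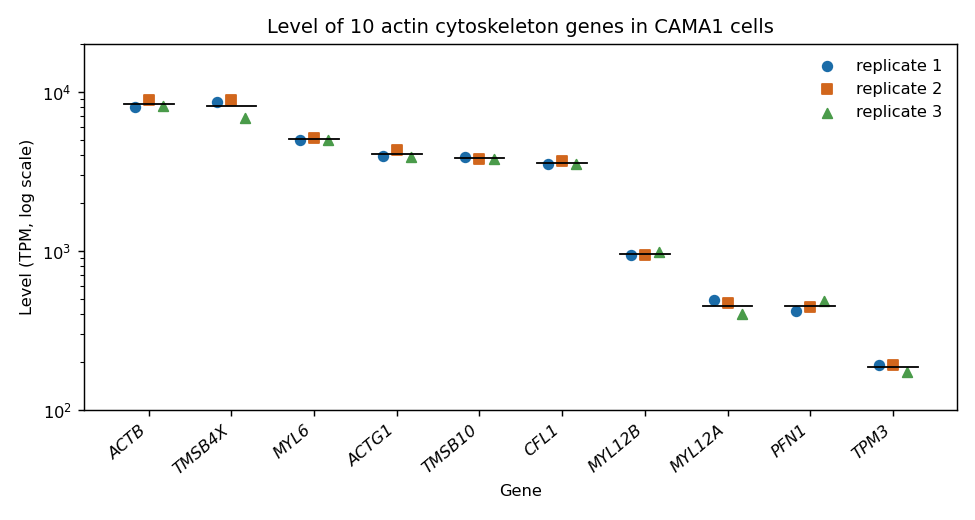
Level of each of the 10 genes in TPM (log axis, deposited lengths), with 1 point per library and a bar at the mean. ACTB and TMSB4X overlap at the top, MYL12A and PFN1 overlap near 450 TPM, and TPM3 is lowest at 185 TPM.

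In the order of mean level, ACTB, TMSB4X, MYL6, ACTG1, TMSB10, CFL1, MYL12B, MYL12A, PFN1 and TPM3, 2 pairs of neighbours could not be separated by their libraries. ACTB was above TMSB4X in 1 of 3 libraries, and MYL12A above PFN1 in 2 of 3. The other 7 pairs of neighbours had ranges that did not overlap, though ACTG1 exceeded TMSB10 only 1.06-fold and TMSB10 exceeded CFL1 1.07-fold. The widest step was between CFL1 and MYL12B, 3.73-fold. This order and its steps are those of the deposited lengths. With GENCODE exon lengths CFL1 came to 1046 TPM and MYL12B to 797 TPM, and TMSB10 ranked 2 among the 10 genes. Together the 10 genes held 3.50 ± 0.181% of all TPM and 1.65 ± 0.0724% of all counts.

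**Figure D2:**
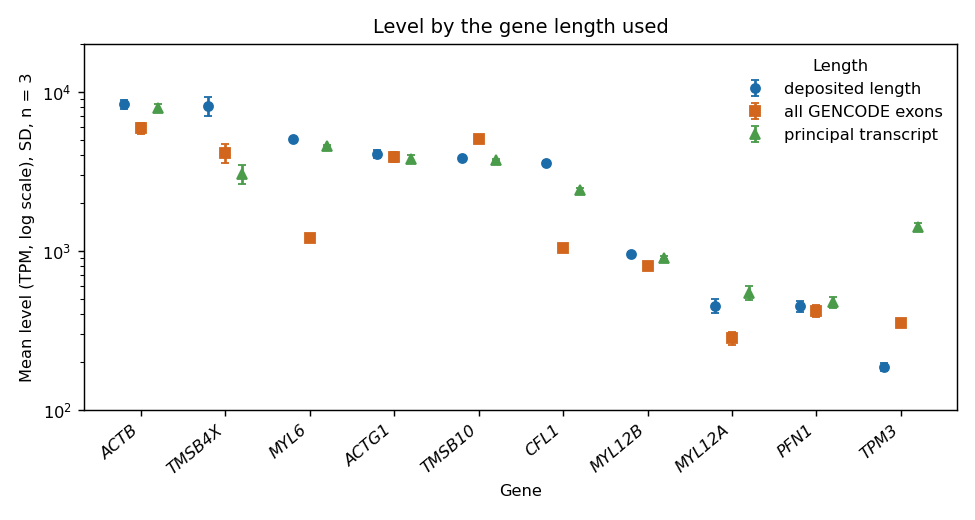
Mean level of each gene in TPM (log axis, bars are SD, n = 3) with the deposited length, the length of all GENCODE exons, or the longest principal transcript of the 10 genes. ACTB stays highest under each length, while MYL6 and CFL1 fall to 1209 and 1046 TPM with all exons and TPM3 rises to 1418 TPM with its principal transcript.

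Within their families the members made up nearly all transcripts of the actins and thymosins, whereas the share of TPM3 among the tropomyosins depended on the length used. ACTB and ACTG1 held 99.3 ± 0.0367% of the TPM of 7 actin genes. The remaining actins were led by the smooth muscle genes ACTG2 (43.2 ± 5.35 TPM) and ACTA2 (31.7 ± 3.32 TPM) and the skeletal muscle gene ACTA1 (6.26 ± 1.63 TPM), and 3 of these 5 other actins had at least 10 counts in each library. The thymosins TMSB15A and TMSB15B had 1.02 ± 0.319 and 0.732 ± 0.266 TPM, so TMSB4X and TMSB10 held 99.99% of 4 genes. MYL6, MYL12A and MYL12B held 92.2 ± 0.253% of 13 light chain genes.

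Of the 10 other light chains, 3 had at least 10 counts in each library: MYL9, a regulatory chain of smooth muscle and non-muscle cells, at 388 ± 15.6 TPM, MYL6B at 103 ± 4.24 TPM and MYL5 at 52.9 ± 7.42 TPM. The striated muscle chains MYL1, MYL2, MYL3 and MYL4 had 0 counts in every library, which leaves room for up to 3 counts each. PFN1 held 92.8 ± 0.412% of 4 profilins, with PFN2 at 33.3 ± 0.964 TPM, PFN4 at 1.31 ± 0.201 TPM and PFN3 at 0.117 ± 0.102 TPM.

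CFL1 shared its family with destrin, a close relative that also severs filaments. DSTN stood at 1665 ± 61.5 TPM and CFL2, the muscle cofilin, at 4.51 ± 0.341 TPM, so CFL1 held 68.1 ± 1.28% of the 3 genes. TPM4 was the main tropomyosin transcript with the deposited lengths, at 1045 ± 9.61 TPM, ahead of TPM1 at 92.9 ± 8.07 TPM and TPM2 at 9.68 ± 1.5 TPM. TPM3 then held 13.9 ± 0.514% of the 4 genes, but 39.4% with the lengths of all GENCODE exons and 38.2% without any length. With principal transcript lengths for the 10 genes and deposited lengths for the others, TPM3 held 55.1% and ranked first. That mixed setting shortens TPM3 alone among the 4 genes, so it cannot tell which tropomyosin transcript was the main one. CFL1 held 50.2% of its family with the lengths of all GENCODE exons and 58.8% with its principal transcript.

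**Figure D3:**
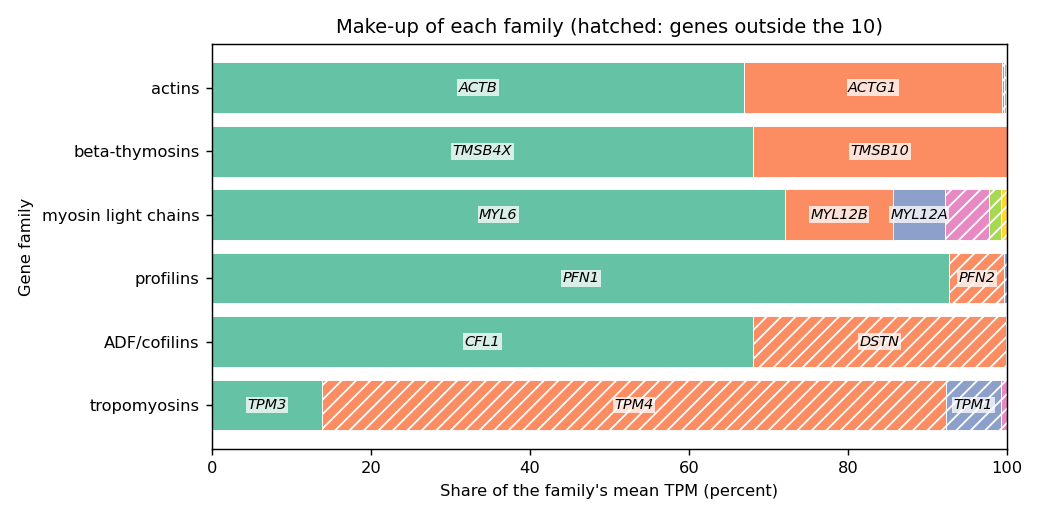
Share of each gene in the mean TPM of its family, in percent, with genes outside the 10 hatched. ACTB with ACTG1 and TMSB4X with TMSB10 fill their bars almost whole, whereas DSTN and TPM4 take large shares beside CFL1 and TPM3.

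The wider machinery that acts on these proteins was mostly expressed. Of 130 genes in 15 lists, 102 (78.5%) had at least 10 counts in each library, against 67.3% of all protein-coding entries, and their median was 29.4 TPM against 8.07 TPM. With the deposited lengths, the highest gene of these lists, DSTN, lay below the 6 highest members and above MYL12B, MYL12A, PFN1 and TPM3. Before any division by length DSTN had 28467.5, 28157.5 and 35549.5 counts in replicates 1, 2 and 3. These were more than those of TMSB10, 1 of the 6, with 18538, 18280 and 21480. In the Arp2/3 complex, which branches filaments, and its activators, 13 of 14 genes reached that minimum (median 131 TPM), led by ARPC3 at 814 ± 65.8 TPM, ARPC5 at 353 ± 14.4 TPM and ACTR2 at 332 ± 18.7 TPM. Formins, which elongate unbranched filaments, had 11 of 13 genes at that minimum but a median of 5.53 TPM, led by DIAPH1 at 166 ± 13.6 TPM, FHOD1 at 85.6 ± 2.73 TPM and DAAM1 at 50.4 ± 1.99 TPM.

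Of the genes for capping, severing and monomer binding 14 of 15 reached the minimum (median 136 TPM), with the capping subunit CAPZA1 at 813 ± 26.1 TPM, WDR1, which works with cofilin, at 516 ± 18.3 TPM and CAPZB at 357 ± 30.5 TPM. Crosslinkers, 10 of 12 (median 30.9 TPM), were led by the filamin FLNA at 956 ± 69.2 TPM and by ACTN4 at 359 ± 12.0 TPM and EZR at 250.2 ± 5.56 TPM. MSN, a relative of EZR, had 3, 2 and 4 counts.

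Myosin II heavy chains were few: 6 of 13 reached the minimum (median 0.00836 TPM), and the non-muscle chains MYH9 at 731 ± 69.1 TPM, MYH14 at 75.6 ± 3.98 TPM and MYH10 at 8.52 ± 0.469 TPM led. Of the kinases and the phosphatase that set light chain phosphorylation, 12 of 13 reached it (median 42.2 TPM). They were led by DAPK3 at 172 ± 9.45 TPM, the phosphatase subunit PPP1CB at 138 ± 3.25 TPM and CDC42BPB at 66.9 ± 1.97 TPM. All 8 genes for cofilin kinases and phosphatases reached it (median 35.9 TPM), led by the kinase LIMK2 at 115 ± 12.6 TPM, the phosphatase SSH3 at 74.1 ± 2.56 TPM and the kinase TESK1 at 62.1 ± 2.60 TPM.

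**Figure D4:**
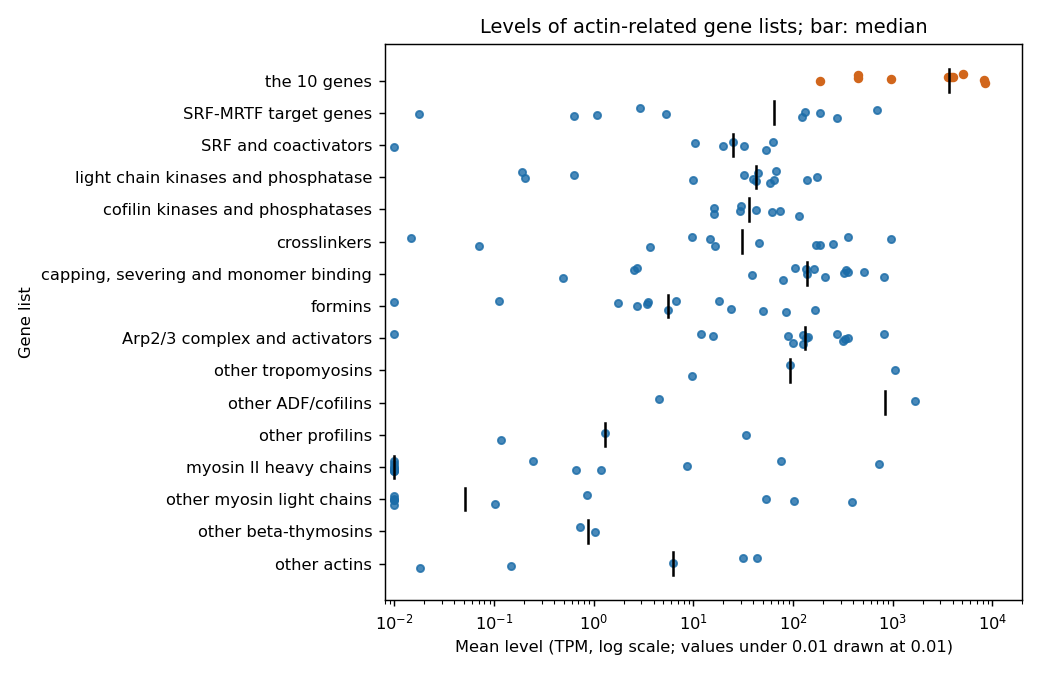
Mean level (TPM, log axis) of each gene in the actin-related lists and of the 10 genes, 1 point per gene with a bar at the list's median and values under 0.01 drawn at 0.01. The points of the 10 genes lie from 185 to 8347 TPM, and the highest point of the other lists is DSTN at 1665 TPM.

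Luminal epithelial markers other than ESR1 were high, and markers of other cell types were low, though several were detected. All 6 luminal markers reached the minimum of 10 counts in each library, with KRT19 highest at 3256 ± 605 TPM. ESR1 was the lowest of them at 30.1 ± 0.665 TPM, about the level of ACTA2 at 31.7 ± 3.32 TPM. Of the 8 smooth muscle and myoepithelial markers 5 reached it, and the list summed to between 33.7 and 40.9 TPM per library. ACTA2, one of the actins above, made up most of that sum.

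The other 4 detected were TAGLN at 2.90 ± 0.243 TPM, KRT14 at 1.48 ± 0.335 TPM, MYH11 at 1.17 ± 0.0662 TPM and TP63 at 0.682 ± 0.195 TPM. KRT5 had 4 counts in each library, and DES and CNN1 at most 1. The striated muscle list, which also holds ACTA1, summed to between 4.54 and 8.09 TPM, with the other 7 of its 8 genes at 3 counts or fewer. Because ACTA2 and ACTA1 are members of these lists, the sums are not separate from the actin levels given above.

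Of 6 fibroblast markers, COL1A1 at 10.5 ± 0.27 TPM and VIM at 3.27 ± 0.0515 TPM were detected, and COL1A2, DCN and LUM had 0 counts, for sums between 13.5 and 14.1 TPM. Of 4 immune markers, LYZ at 6.48 ± 1.17 TPM and CD68 at 3.08 ± 0.47 TPM were detected, and PTPRC and CD3E had 3 counts or fewer, for sums between 8.64 and 11.1 TPM. None of 3 endothelial markers was detected, and they summed to at most 0.253 TPM. The part of other cell types in the levels of the muscle isoforms was not tested.

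Between the libraries the 10 genes spread about as much as other abundant genes. None of the 10 passed a test for variation between replicates beyond the trend of all genes. In it 190 of 14453 genes tested (1.31%) were called (edgeR negative binomial model with trended dispersion, Benjamini-Hochberg adjusted p under 0.05). The trend was fitted to these same libraries, so only genes that spread more than others of like abundance can be called. With so low a background, 0 of 10 says little of these genes. On data simulated from the fitted trend itself, the test found 21.5% of genes changed 1.5-fold in 1 library. Those genes were drawn at random from all genes tested, so this share need not hold for genes as abundant as the 10. None of the 10 had an unadjusted p under 0.05 either, a mark that 6.07% of genes tested passed. Here CPM are counts scaled to a common library size with TMM factors and not divided by length. The highest library was 1.03- to 1.26-fold above the lowest for the 10 genes (median 1.10), against a median of 1.14 over all genes tested and 1.08 over the 2635 genes with at least 100 CPM.

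TMSB4X varied most, at 2009, 2111 and 1670 CPM in replicates 1, 2 and 3 (1.26-fold, edgeR adjusted p = 1.0). PFN1, at 210, 226 and 254 CPM (1.21-fold), and MYL12A, at 266, 260 and 229 CPM (1.16-fold), came next, each with an edgeR adjusted p of 1.0. PFN1 was highest in replicate 3, where MYL12A and TMSB4X were lowest, so the 10 genes did not share an order of libraries. TMSB10 varied least, at 693, 688 and 707 CPM.

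Replicate 1 was lowest for 6 of the 10 genes and replicate 2 highest for 5, whereas 32.8% of all genes tested were lowest in replicate 1 and 27.5% highest in replicate 2. Among genes with at least 100 CPM, as all 10 are, 39.9% were lowest in replicate 1 and 26.2% highest in replicate 2. Against sampling variation alone (Poisson), 9 of the 10 genes were called, all but TMSB10, with a background of 41.6% of all genes tested. That share covers genes of every abundance, and such calls come more easily at high counts. It is therefore not a like background for the 10 genes, and a share for abundant genes alone was not computed. Counting error was small, between 0.251% for ACTB and 1.25% for PFN1 as a coefficient of variation, against observed values between 1.37% and 12.0% in CPM. The number of genes called in all was 94 without replicate 1, 67 without replicate 2 and 25 without replicate 3, and no member was called in any of these.

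The immediate early genes EGR1 and FOS, which serum response factor is also known to activate, differed widely between the libraries. EGR1 had 19.4, 466 and 487 CPM and FOS 4.04, 80.4 and 64.5 CPM, both lowest in replicate 1. ACTB was lowest there too, at 5369 CPM against 6079 and 5679, and so was ACTG1 at 3063 against 3417 and 3164. These differences of 1.13- and 1.12-fold from lowest to highest did not pass the test. Among genes with at least 100 CPM, 39.9% were lowest in replicate 1. A link of the actins with EGR1 and FOS was not tested.

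Serum response factor and its partners were expressed, 6 of 7 genes at the minimum of 10 counts (median 25.0 TPM). SRF stood at 62.2 ± 5.86 TPM, MRTFB at 54.0 ± 1.02 TPM and ELK1 at 32.5 ± 2.15 TPM, while MYOCD, the muscle coactivator, had 0 counts. Of 10 genes known as targets of SRF with MRTF, 9 reached the minimum (median 64.7 TPM), led by TAGLN2 at 691 ± 48.3 TPM, ZYX at 274 ± 33.6 TPM and CNN2 at 185 ± 16 TPM. TAGLN2 had 456, 483 and 432 CPM in replicates 1, 2 and 3, ZYX 245, 259 and 210, and CNN2 182, 186 and 163. Each was lowest in replicate 3, as were VCL, FHL2, TAGLN and ANKRD1, and SRF itself at 101, 108 and 91.8 CPM. Only CCN1 and CCN2 of the detected targets were lowest in replicate 1. Over all genes tested, 39.8% were lowest in replicate 3 and 32.8% in replicate 1. For genes with at least 100 CPM these shares were 36.5% and 39.9%. TAGLN, ANKRD1 and CCN2 had at most 48 counts in any library, so their orders rest on few counts. A response shared by these genes was not tested. Among all list genes, 2 of 102 tested were called for variation, beside the 1.31% of all genes. CCN1, a secreted matrix protein gene of that list, had 63.3, 130.3 and 129.5 CPM (edgeR adjusted p = 9.34e-10). The formin FMN1 had 20.6, 22.4 and 9.60 CPM (edgeR adjusted p = 2.78e-05). CCN1 was not called without replicate 1 (edgeR adjusted p = 1.0) and FMN1 not without replicate 3 (edgeR adjusted p = 0.999).

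**Figure D5:**
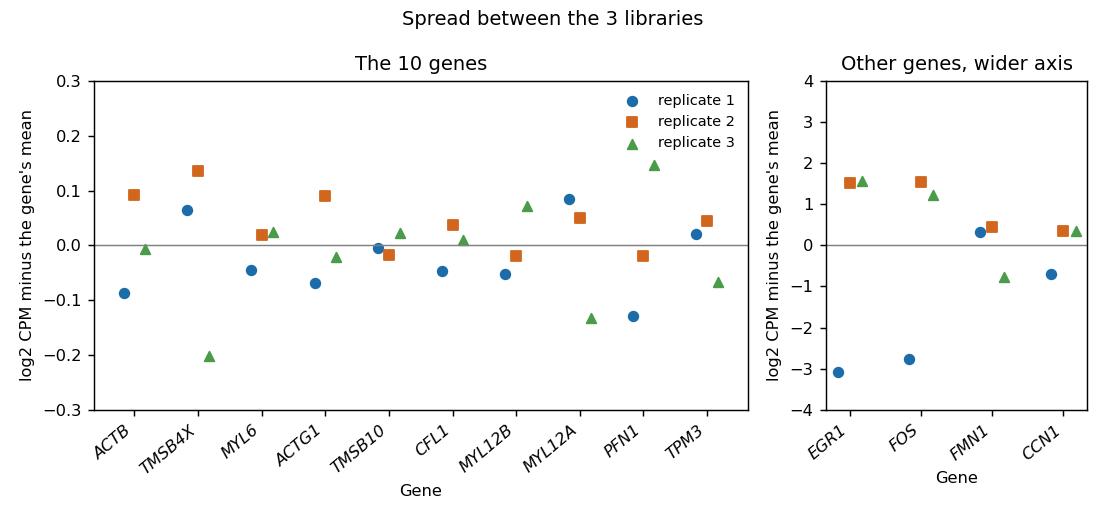
Deviation of log2 CPM in each library from the gene's mean over the 3 libraries, for the 10 genes on the left and, on an axis more than 10 times as wide, for EGR1, FOS, FMN1 and CCN1 on the right. TMSB4X shows the widest spread on the left, 1.26-fold, while EGR1 runs from 19.4 to 487 CPM.

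The CArG box was looked for in RefSeq promoter windows (GRCh38.p14, 250 bases before to 50 after a start site), which matched 9 of the 10 genes with 14 windows; ACTB was not among them. Of these, ACTG1 had a match, in its only window, while 1.29% of all 35116 windows held one on either strand. The stretch around it is shown as the one match to the SRF motif among the promoters of the 9 genes searched, with the box in capitals (chr17:81512869-81512943, minus strand, 144 to 70 bases before the start site).
ACTG1 promoter: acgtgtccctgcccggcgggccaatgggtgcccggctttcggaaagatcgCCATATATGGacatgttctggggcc
The box begins 94 bases before the start site of that window. The deposited ACTG1 entry begins at 81512866 on the minus strand, nearer to the box. The letters TATAAA were in none of the 14 windows (11.5% of all windows), CCAAT was in 6 of 14, from 5 genes (34.6% of all windows), and GGGCGG in 10 of 14, with at least 1 window of each of the 9 genes (45.0% of all windows). Both strands were searched, windows of 1 gene can overlap, and a match is a description of the sequence only.

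The genes whose pattern over the 3 libraries was nearest to the median of the 10 were VPS4A, UNC13B, NOMO2, CSNK2B and ZFAND3, out of 2522 protein-coding genes with at least 100 CPM outside the lists. Their Euclidean distances in log2 CPM were 0.0053, 0.0053, 0.0059, 0.0059 and 0.0068. VPS4A had 111, 118 and 115 CPM in replicates 1, 2 and 3, slightly lowest in replicate 1 like ACTB. With 3 libraries this likeness is a description of small deviations.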

How the data were processed

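The authors deposited estimated counts per gene, not normalized, for 3 libraries of CAMA1 cells, with exon positions and a gene length in bases. Libraries came from a stranded mRNA kit, per the labels' protocols. The tools named are TopHat, Subread and featureCounts, with the build hg38, per the submitters' processing notes. Their versions and settings are not given in the sources used here, nor is the handling of reads with several matches. Above 0, whole values (tolerance 1e-08) made up 82.9% to 83.3% of each library.

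TPM were computed from deposited counts and lengths. For the spread between libraries, counts were rounded to whole numbers and fitted in edgeR 4.0.16 with TMM scaling, its filter on low counts, an intercept and trended dispersion. The residual deviance was set against a chi-square distribution, with Benjamini-Hochberg adjustment over 14453 genes at 0.05. Deviations are log2 CPM with a prior count of 2. On simulated data of this design, 74.2% of genes changed 2-fold in 1 library and 21.5% of those changed 1.5-fold were called. The changed genes were drawn at random from all genes tested, whatever their abundance. Counting intervals cover counting error only.

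Symbols were matched to RefSeq (23758 by their own, 1536 by an older symbol, 1191 unmatched), giving the protein-coding class. The members and lists were chosen with earlier results of these data known. Named genes were the members, the 3 highest genes of each list, list genes called for variation, pseudogenes with at least 10 counts, the 5 genes nearest in pattern, and EGR1 and FOS. Genes named beyond that, such as MSN, MYL1, MYOCD and the cell markers, were chosen after their values were seen. Alternatives covered scaling with DESeq2 1.42.0 size factors, filters, dispersion, gene lengths, pseudogene counts and left-out libraries.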

Additional observations from a re-analysis of the deposited data

How the results depend on the processing

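The count of 0 members called for variation was the same with DESeq2 size factors, without a filter on low counts, with a common dispersion and without any 1 library. It was 9 when the model allowed Poisson sampling alone, where 6017 of all genes, whatever their abundance, were called against 190. Leaving out 1 library gave between 25 and 94 genes called. Lengths moved the levels most. The share of the 10 genes, 3.50% of TPM, was 1.65% without division by length, 2.31% with GENCODE exon lengths and 2.88% with principal transcripts, the last chosen after seeing the data. The log2 ratio of ACTB over ACTG1, 1.04, was 0.83 without length and 0.59 with GENCODE exons. That of TMSB4X over TMSB10, 1.08, was 1.46 without length but reversed to −0.32 with GENCODE exons and −0.31 with principal transcripts. That of MYL12A over MYL12B, −1.08, was −0.76 without length, −1.51 with GENCODE exons and −0.74 with principal transcripts. These shifts follow from the lengths alone, since counts were the same. Adding pseudogene counts or 1 TPM moved none of the ratios beyond their SD, and PFN1 with its pseudogene came to 487 TPM. Between 98 and 110 of the 130 list genes were detected under the other minimums. No paired analysis was possible because the series has 1 group. Precision is limited by 3 libraries rather than by depth for these genes.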
